A study of Mus musculus with 27 samples.

Results

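Cholesterol handling was followed through 32 listed genes in the livers of 27 mice: 17 enzymes of cholesterol synthesis, 4 genes of sterol sensing, 5 of uptake and movement within the cell, 4 of export and 2 of esterification. The members were taken from that list by gene symbol, with the brightest probe set standing for a gene. Of the 32, 29 had a probe set that named only that gene in the annotation used here, and all 29 passed the intensity minimum, out of 18820 genes with such a probe set and 13603 genes tested. No single-gene probe set was named for Acat2, Soat1 or Soat2, so 16 of the 17 enzymes and none of the esterification genes were measured. Npc1l1 was above an intensity of 20 on 21 of the 27 arrays, and the other 28 genes were above it on every array.

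All mice were male C57BL/6J, received AIN-93G for the 2 weeks before the study, began their diet at 9 weeks of age, were housed singly and were killed at 12 months. C-fed mice (n = 7) had AIN-93W ad libitum, and MF-fed mice (n = 7) had AIN-93W-MF, with 25% of energy from fat, ad libitum. CR-fed mice (n = 6) were given AIN-93W-CR each day at a planned calorie restriction of 30%. INT-fed mice (n = 7) alternated by the week between AIN-93W-MF ad libitum and a planned restriction of 40%. Both restrictions were set from the mean energy intake of mice on AIN-93W. In the paper's intake measurements, CR-fed mice took less than the planned share of the C-fed intake. The INT livers were taken in the ad libitum week. Every mouse was mock-treated: it fasted for 4 h, received 0.5% carboxymethyl cellulose by gavage and fasted for a further 6 h, so all values describe fasted liver and the solvent was common to all groups. Before this fast C-, MF- and INT-fed mice ate ad libitum, but CR-fed mice had a portion at a set time each day. The time since the last meal may therefore differ between CR and the other diets. Its part in the differences cannot be told apart from that of the diet. Each array measured one mouse. Values are log2 signal after RMA (a background correction and normalization shared by all arrays), so a difference of 1 is a doubling, and signals are compared between mice for one gene, never between genes. Array medians lay between 5.21 and 5.27, and every pair of arrays correlated at r = 0.982 to 0.992. Replicates 1 to 4 and replicates 5 to 7 of each diet were also read as separate array sets, because the interquartile range of an array averaged 3.63 (SD 0.03, 16 arrays) in the first and 3.72 (SD 0.03, 11 arrays) in the second; the labels name no batch.

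Hepatocytes make cholesterol from acetyl-CoA through mevalonate, isoprenoids, squalene and lanosterol. When sterol in the endoplasmic reticulum is scarce, SCAP carries the transcription factor SREBP2 (encoded by Srebf2) to the Golgi for cleavage, and the cleaved factor switches on the synthesis genes, Srebf2 itself and Insig1, whereas INSIG proteins hold SCAP back when sterol is plentiful. Excess cholesterol leaves the liver through ABCA1 and ABCG1 to lipoproteins and through the ABCG5/ABCG8 pair into bile, and these exporters are targets of LXR, a receptor activated by oxidized sterols.

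The stretches before the annotated starts of 6 members are shown to set genes with different results side by side: Hmgcs1, Lss and Insig1 had higher signals in CR-fed mice, Abca1 a lower one, and Abcg5 and Abcg8 were not called. Of the annotated starts of Abcg8, one lies within Abcg5, and the other lies 109 bases from the start of Abcg5 on the opposite strand; the 109 bases between them are shown. Sequences are RefSeq's for GRCm38.p6, 5' to 3', and capitals mark a match on either strand to TCACNCCAC (a sterol regulatory element), CCAAT (the CCAAT box) or CACGTG (an E-box). No match to one of the 3 motifs overlapped a match to another.
Hmgcs1 (chr13:119690101-119690350, + strand, 250 bases): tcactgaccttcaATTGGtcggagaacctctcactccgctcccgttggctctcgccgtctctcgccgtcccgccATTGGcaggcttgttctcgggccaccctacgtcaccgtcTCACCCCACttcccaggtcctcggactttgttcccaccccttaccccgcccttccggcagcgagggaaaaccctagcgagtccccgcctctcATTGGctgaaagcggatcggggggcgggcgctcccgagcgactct
Lss (chr10:76531355-76531564, + strand, 210 bases): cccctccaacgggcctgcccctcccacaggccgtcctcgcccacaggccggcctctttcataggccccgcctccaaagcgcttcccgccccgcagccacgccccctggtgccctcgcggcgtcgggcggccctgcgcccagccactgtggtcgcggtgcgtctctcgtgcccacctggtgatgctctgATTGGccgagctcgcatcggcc
Insig1 (chr5:28071162-28071411, + strand, 250 bases): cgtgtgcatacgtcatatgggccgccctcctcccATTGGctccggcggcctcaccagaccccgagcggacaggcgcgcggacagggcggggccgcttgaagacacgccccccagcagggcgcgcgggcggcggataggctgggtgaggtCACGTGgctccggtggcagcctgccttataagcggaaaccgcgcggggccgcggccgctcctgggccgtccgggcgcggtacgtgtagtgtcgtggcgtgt
Abca1 (chr4:53159989-53160145, - strand, 157 bases): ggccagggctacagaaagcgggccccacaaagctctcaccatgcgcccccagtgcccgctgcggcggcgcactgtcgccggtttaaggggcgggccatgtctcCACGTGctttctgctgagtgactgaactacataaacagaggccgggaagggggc
Abcg5 and Abcg8 (chr17:84683012-84683120, + strand, 109 bases): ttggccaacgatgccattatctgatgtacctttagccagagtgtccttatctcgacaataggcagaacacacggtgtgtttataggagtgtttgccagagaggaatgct

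Of the 32 members, 24 matched the promoter table, with 31 windows of 250 bases before a start. CCAAT was found in 20 of the 24, among them 13 of the 14 enzymes in the table, against 33.8% of all 32851 windows of that length. Counted by window, 20 of the 31 member windows held it. The 20 genes included both called and uncalled ones. Among the uncalled were Tm7sf2, Ebp, Npc1l1 and Abcg8, whose match is not within the 109 bases shown above. CACGTG was found in 6 of the 24 (Insig1, Abca1, Scap, Sc5d, Dhcr7 and Hsd17b7). By window this was 6 of 31, against 6.02% of all windows. TCACNCCAC was found in Hmgcs1 alone, in 1 of the 31 windows, against 1.05% of all windows. Several members have more than 1 window, and a match is a description of letters, not of a bound site. Only these spellings were searched for, within 250 bases. A window without a match to TCACNCCAC is therefore not shown to lack a sterol regulatory element.

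In CR-fed mice 11 of the 16 measured enzymes had higher signals than in C-fed mice and 11 of 16 than in MF-fed mice by limma (Benjamini-Hochberg adjusted p under 0.05 over 13603 genes, 2-sided), and no enzyme was lower. Over all 29 members, 12 were higher and 1 lower in CR than in C, and 13 were higher and 2 lower in CR than in MF; the second total of 15 was 9 without CR replicate 4 and 9 without CR replicate 5. Among all genes tested, 8.46% were higher and 9.05% lower in CR than in C, and 8.57% were higher and 11.2% lower in CR than in MF. The median change over the 16 enzymes was 0.66 on the log2 scale against C and 0.67 against MF, where the median of all genes was 0.00 in both. With arrays centered on their medians the members called against MF were 15 higher and 1 lower, and all genes split into 1475 higher and 1222 lower in place of 1166 and 1524. These comparisons use the same CR-fed mice, so they are not independent of each other. Livers are mixed tissue, in which fewer cells of a type and less RNA per cell cannot be told apart.

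**Figure D1:**
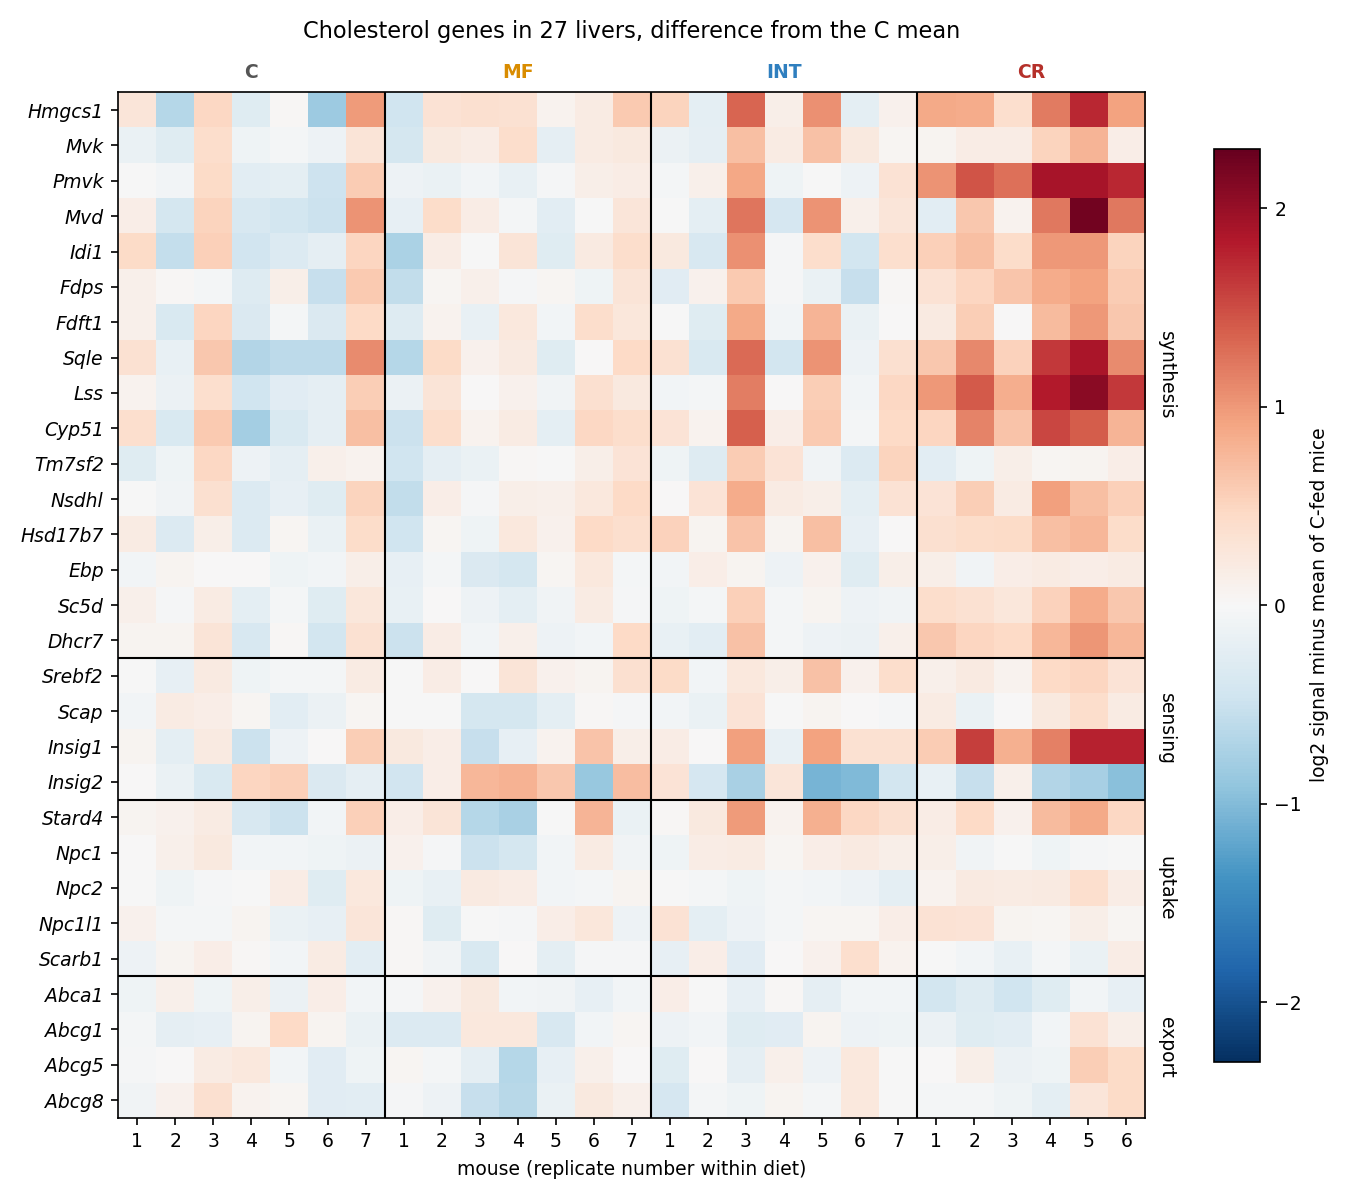
Each row is a gene and each column a mouse, with diets side by side; color gives the log2 signal minus the mean of the 7 C-fed mice. Most enzymes at the top are red in the 6 CR-fed mice, in INT replicate 3 and in C replicate 7, and among the uptake and export rows Stard4, Abcg5 and Abcg8 have the strongest colors in single mice.

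Pmvk, which phosphorylates mevalonate phosphate, had the largest difference of the members. Its log2 signal was 6.91 to 7.96 in C-fed mice (median 7.31), 7.21 to 7.55 in MF-fed mice (median 7.32), 7.27 to 8.27 in INT-fed mice (median 7.37) and 8.42 to 9.27 in CR-fed mice (median 8.97). All 6 CR-fed mice lay above all 21 others, which held for no other member. How many of all genes separate CR in this way was not counted. Acly, a gene outside the members, did so too, at 11.30 to 12.07 in CR-fed mice and at most 10.79 in the others. CR exceeded C by 1.54 (SE 0.17, adjusted p = 2.28e-07 by limma), a 2.91-fold difference, and MF by 1.57 (SE 0.17, adjusted p = 1.67e-07). INT minus CR was -1.39 (SE 0.17, adjusted p = 1.18e-06).

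Lss, which closes the sterol ring by forming lanosterol, followed. Its signal ran from 7.63 to 8.66 in C-fed mice (median 7.96), 7.96 to 8.45 in MF-fed mice (median 8.19), 8.03 to 9.26 in INT-fed mice (median 8.10) and 8.92 to 10.17 in CR-fed mice (median 9.60). The CR-fed mice overlapped neither the C-fed nor the MF-fed mice, and INT replicate 3, at 9.26, was the one mouse from another diet to lie among them. The difference was 1.46 against C (SE 0.20, adjusted p = 8.45e-06 by limma, 2.76-fold) and 1.35 against MF (adjusted p = 2.42e-05), and INT minus CR was -1.17 (adjusted p = 0.00018).

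Hmgcs1, which makes HMG-CoA at the head of the pathway, varied more within a diet. It ranged from 8.37 to 10.18 in C-fed mice (median 9.22), 8.74 to 9.80 in MF-fed mice (median 9.53), 8.97 to 10.53 in INT-fed mice (median 9.33) and 9.59 to 10.93 in CR-fed mice (median 10.10). The highest C-fed mouse, replicate 7, lay above the median of the CR-fed mice, so the diets overlapped. CR exceeded C by 1.00 (SE 0.27, adjusted p = 0.0104 by limma) and MF by 0.79 (SE 0.27, adjusted p = 0.0393), and the second call was lost without any one CR-fed mouse but replicate 3, or without MF replicate 1, 5 or 6, and with trend and robust variances (adjusted p = 0.0536). INT minus CR for Hmgcs1 was -0.61 (adjusted p = 0.136).

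**Figure D2:**
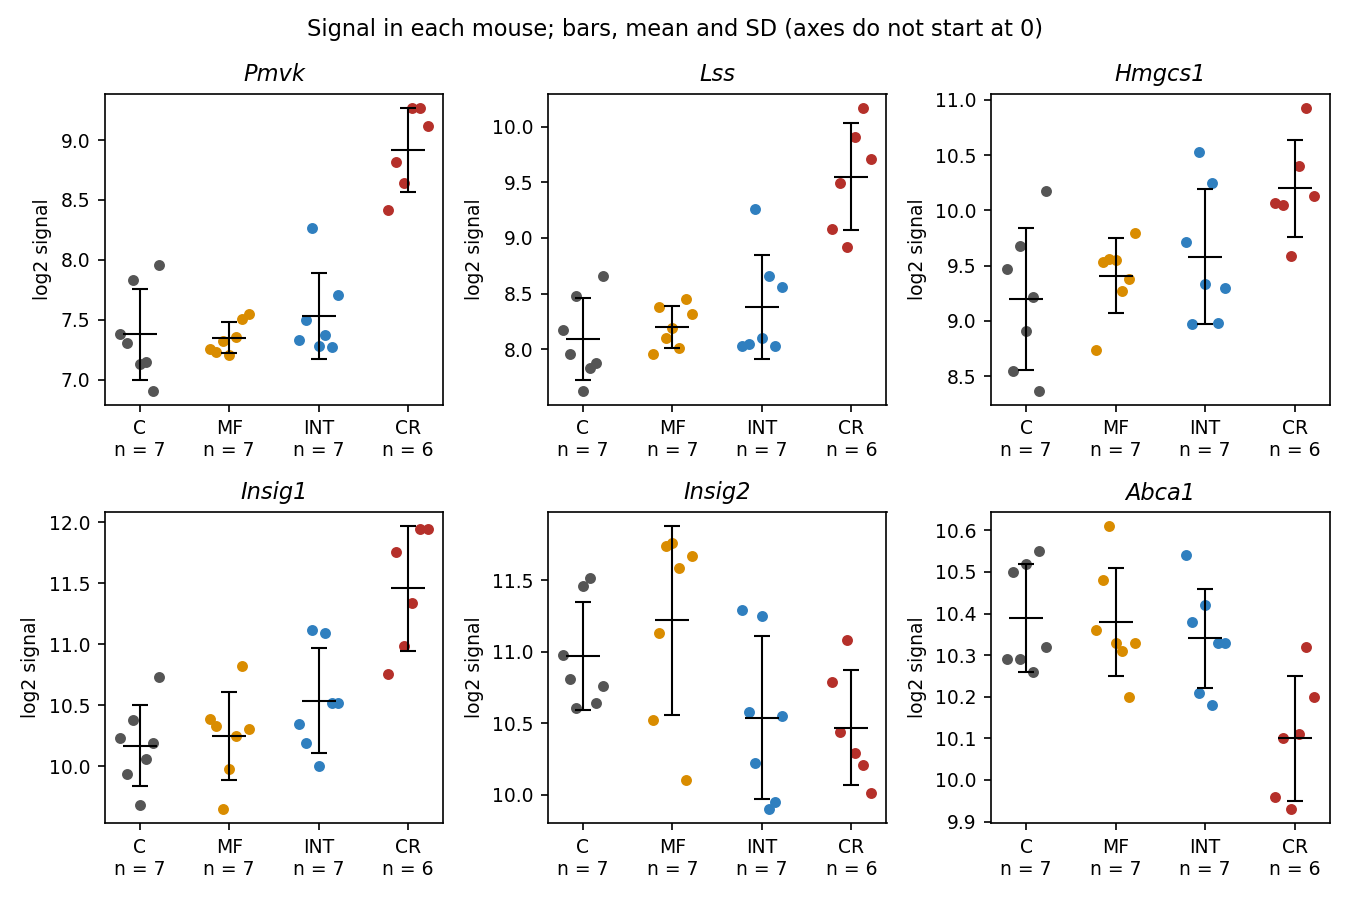
Log2 signal of 6 genes in each mouse by diet, with the mean and SD as bars; the vertical axes do not start at 0. Pmvk separates the 6 CR-fed mice from all others and Hmgcs1 does not. The CR mean is the highest for Insig1 and the lowest for Insig2, where the INT mean lies close to it. Abca1 is lowest in CR-fed mice over a much narrower range.

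Sqle and Cyp51 act on either side of the step that forms lanosterol. Sqle, the squalene epoxidase, stood at 7.76 to 9.53 in C-fed mice (median 8.27), 7.78 to 8.90 in MF-fed mice (median 8.53), 8.02 to 9.75 in INT-fed mice (median 8.79) and 8.97 to 10.32 in CR-fed mice (median 9.54). CR-fed mice overlapped the C-fed and INT-fed mice but not the MF-fed mice. The difference was 1.14 against C (SE 0.30, adjusted p = 0.00879 by limma) and 1.11 against MF (adjusted p = 0.00992), with INT minus CR at -0.83 (adjusted p = 0.0648). Cyp51, the lanosterol demethylase, was higher in CR by 1.00 against C (SE 0.24, adjusted p = 0.00379) and by 0.88 against MF (adjusted p = 0.00933).

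Idi1 and Fdps make the isoprenoid units that are joined into squalene. Idi1 was 0.70 higher in CR than in C (SE 0.22, adjusted p = 0.027 by limma) and 0.69 higher than in MF (adjusted p = 0.0263); the first call was lost without C replicate 2, 4 or 5 or CR replicate 4 or 5, and the second without CR replicate 4 or 5 or MF replicate 1 or 5. Fdps was 0.63 higher than in C (SE 0.16, adjusted p = 0.006) and 0.66 higher than in MF (adjusted p = 0.00368), and no single mouse ended either Fdps call. Its INT minus CR difference was -0.67 (adjusted p = 0.00435).

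Of the 6 measured enzymes that act after Cyp51, 4 were called in CR against C. Dhcr7, the last reductase of one branch of the pathway, was 0.68 higher in CR than in C (SE 0.15, adjusted p = 0.00161 by limma), with 9.84 to 10.40 in the CR-fed and 8.96 to 9.74 in the C-fed mice and no overlap between them. Sc5d, the lathosterol desaturase, was 0.50 higher in CR than in C (SE 0.11, adjusted p = 0.00126), with 11.61 the lowest CR value and 11.60 the highest C value. Nsdhl and Hsd17b7, which act in removing the C4 methyl groups, were 0.54 (adjusted p = 0.0207) and 0.52 (adjusted p = 0.0178) higher in CR than in C, and the Nsdhl call was lost without CR replicate 4. Against MF their differences were 0.47 (adjusted p = 0.0429) and 0.42 (adjusted p = 0.0477), which lay near the threshold. The Nsdhl call was lost without CR replicate 2, 4, 5 or 6 or any of MF replicates 1 to 5, and the Hsd17b7 call without CR replicate 2, 3, 4, 5 or 6, any of MF replicates 1 to 5, C replicate 1, 3 or 5, or INT replicate 2 or 4. With no intensity minimum both calls were lost (adjusted p = 0.0539 and 0.0602), and with trend and robust variances that of Hsd17b7 was lost (0.0503).

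Not every enzyme passed the test. Mvd, the mevalonate diphosphate decarboxylase, differed by 0.85 between CR and C, but its 6 CR-fed mice spread from 5.77 to 8.23 (SE 0.32, adjusted p = 0.0622 by limma). Fdft1, the squalene synthase, differed by 0.52 (SE 0.19, adjusted p = 0.0599), and Mvk, the mevalonate kinase, by 0.31 (95% confidence interval 0.00 to 0.63, adjusted p = 0.176). Ebp, the sterol isomerase, differed by 0.12 (interval -0.05 to 0.29), and Tm7sf2, a sterol reductase whose step the lamin B receptor also performs, by 0.01 (interval -0.29 to 0.30). The intervals of Tm7sf2 and Ebp do not reach the 0.50 of Sc5d, the smallest difference among the enzymes called.

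**Figure D3:**
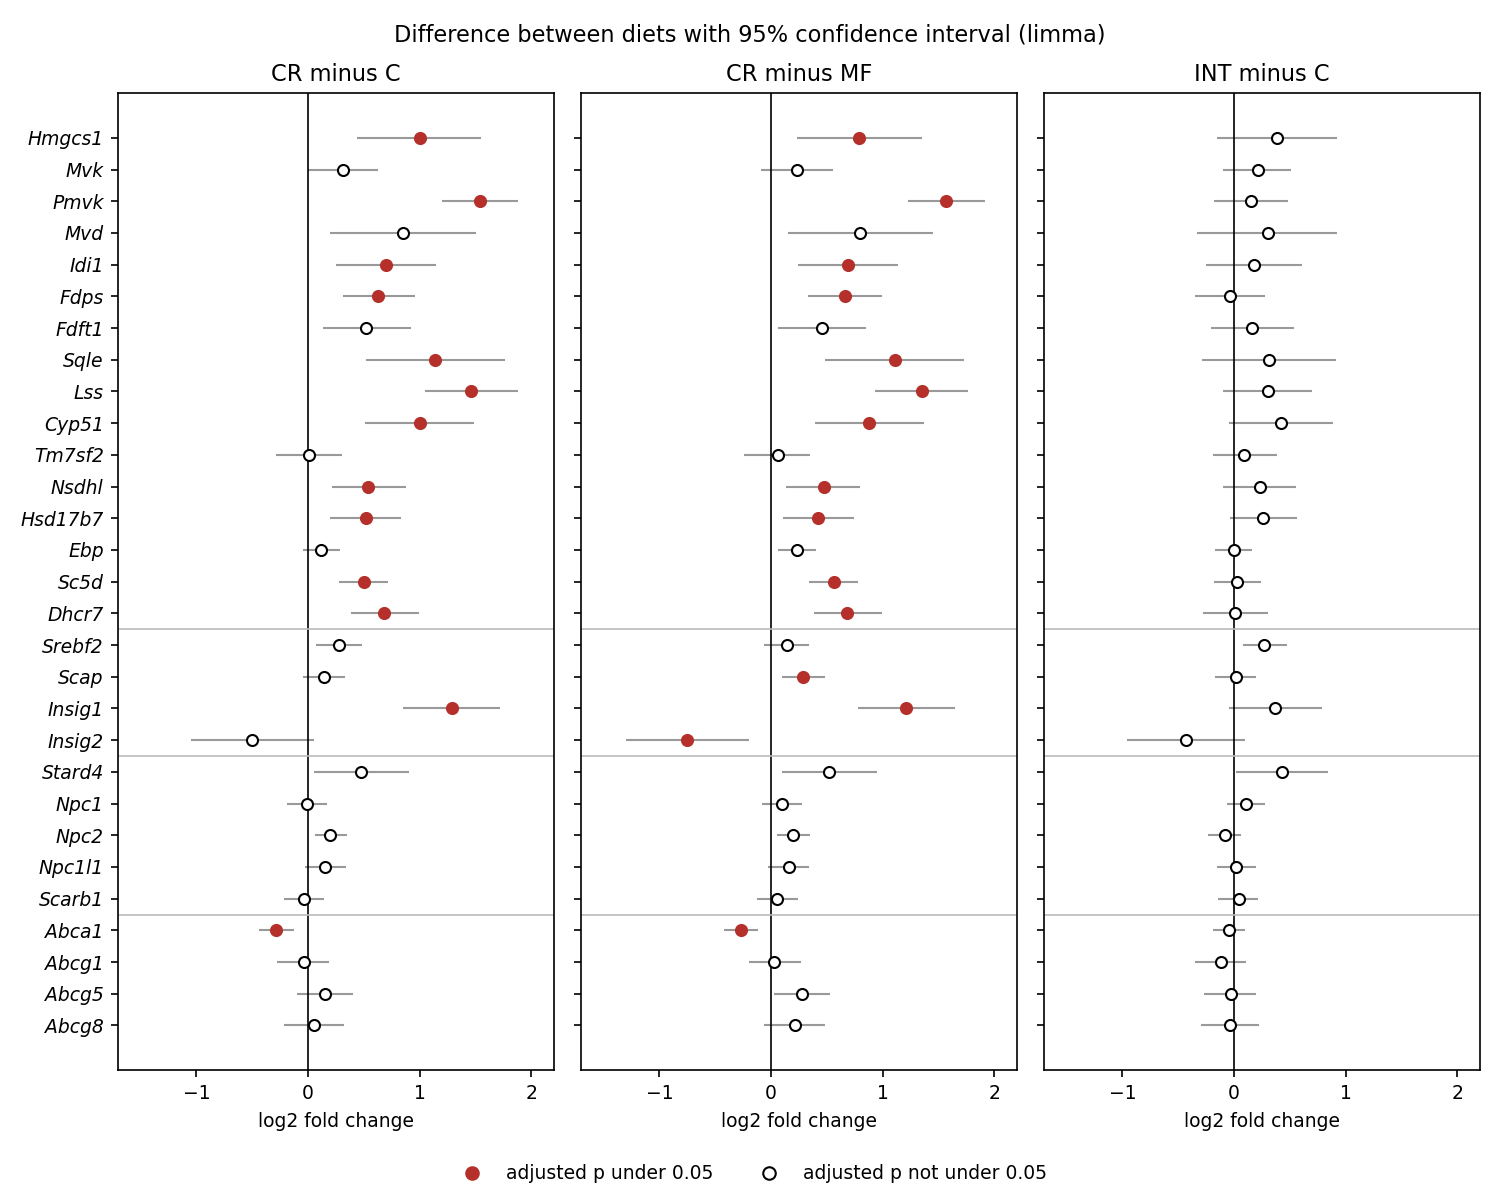
Points give the log2 fold change of each gene, in pathway order from top to bottom, with its 95% confidence interval from limma, for CR minus C, CR minus MF and INT minus C; filled points have an adjusted p under 0.05. Filled points run down the synthesis enzymes in both CR panels (11 of 16 in each), Abca1 is the one filled point below 0 in CR minus C, and the INT panel holds none.

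The enzymes rose and fell together from mouse to mouse, within diets as well as between them. Over 120 pairs of enzymes and 27 mice the median Pearson r was 0.79 (0.16 to 0.96), and after each mouse was set against its diet mean it was 0.74 (0.04 to 0.93); these are descriptions over mice whose arrays were normalized together. Pmvk and Lss gave the highest value, 0.96. Ebp and Tm7sf2 were the least like the rest, with median r values of 0.42 and 0.34 to the other 15 enzymes.

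The mean difference of the 16 enzymes from the C-fed mice therefore gave one summary for each liver. It ran from -0.33 to 0.54 in C-fed mice (median -0.16), from -0.40 to 0.30 in MF-fed mice (median 0.09), from -0.16 to 0.87 in INT-fed mice (median 0.06) and from 0.40 to 1.15 in CR-fed mice (median 0.70). Of the 21 mice on other diets, 3 lay above the lowest CR-fed mouse: INT replicate 3 at 0.87, C replicate 7 at 0.54 and INT replicate 5 at 0.42. INT replicate 3 had the highest signal of its diet in 14 of 16 enzymes, C replicate 7 in 12, and CR replicate 5 in 11, whereas MF replicate 1 had the lowest of its diet in 12. The mean of the 4 export genes stayed between -0.28 and 0.28 in all mice.

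**Figure D4:**
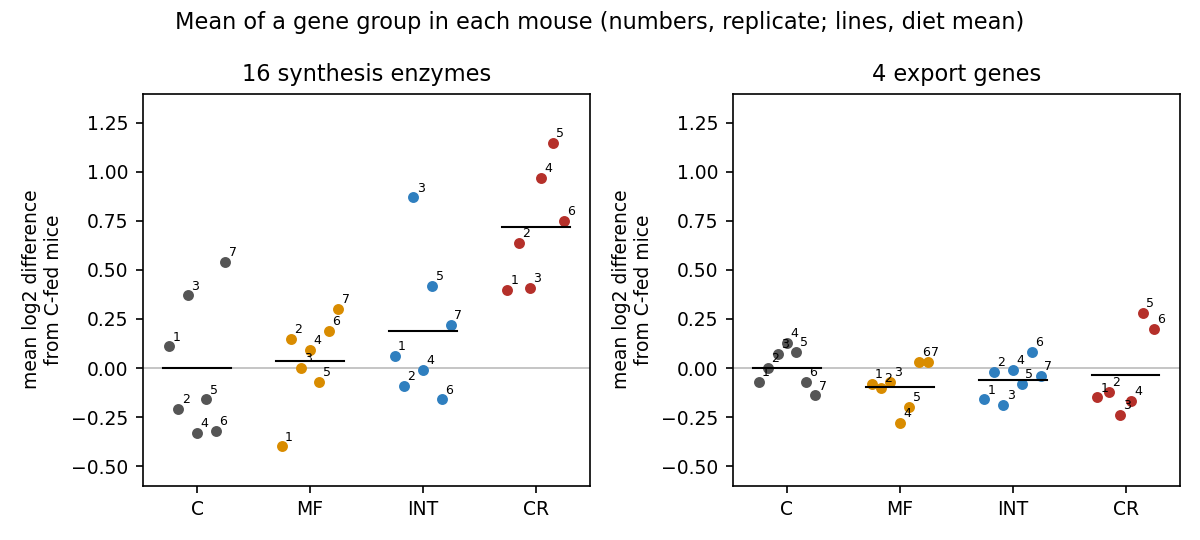
Mean log2 difference from the C-fed mice for the 16 synthesis enzymes (left) and the 4 export genes (right), on the same vertical scale; each point is a mouse labelled with its replicate number and lines are diet means. The enzyme means of the CR-fed mice sit between 0.40 and 1.15, with INT replicates 3 and 5 and C replicate 7 among them. The export means of the CR-fed mice run from -0.24 to -0.12 in replicates 1 to 4 and are 0.28 and 0.20 in replicates 5 and 6.

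Against CR-fed mice, INT-fed mice had lower signals for 7 of the 29 members and a higher signal for 1, where 6.62% of all genes were lower and 8.37% higher. With arrays centered on their medians the members called were 7 lower and 0 higher, and all genes split into 982 higher and 1080 lower in place of 1138 and 901. The 7 were the enzymes Pmvk, Lss, Fdps, Dhcr7 and Sc5d with Insig1 and Npc2, and the 1 was Abca1. Dhcr7 differed by -0.68 (SE 0.15, adjusted p = 0.00208 by limma) and Sc5d by -0.47 (SE 0.11, adjusted p = 0.00254). The median over the 16 enzymes was -0.54. Without INT replicate 3 it was -0.69 and without CR replicate 5 -0.43.

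Between INT-fed and C-fed mice, 0 of 29 members and 0% of all genes were called by limma; at an unadjusted p under 0.05 there were 2 members and 922 genes. The members of smallest p were Srebf2, 0.27 higher in INT (SE 0.09, adjusted p = 0.544), and Stard4, 0.43 higher (SE 0.20, adjusted p = 0.724). The enzymes had a median difference of 0.19, with 14 of 16 above 0, where 7110 of 13603 genes were. That median fell to 0.08 without INT replicate 3. As the enzymes varied together from mouse to mouse, the 14 are not separate results. The interval for Lss was -0.10 to 0.70 and for Cyp51 -0.05 to 0.89, and both intervals hold the 0.50 of Sc5d in CR against C.

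Between INT-fed and MF-fed mice, limma also called 0 members, with 0% of all genes called and 3 members and 1479 genes at an unadjusted p under 0.05. Npc1 was 0.22 higher in INT (SE 0.08, adjusted p = 0.383) and Insig2 differed by -0.68 (SE 0.26, adjusted p = 0.383). Between MF-fed and C-fed mice 0 members and 0% of all genes were called by limma, with 0 members and 464 genes at an unadjusted p under 0.05. The smallest p values there were those of Scap (-0.15, SE 0.09) and Srebf2 (0.14, SE 0.09), each with an adjusted p of 1. The enzymes had medians of 0.16 (INT minus MF, 0.05 without INT replicate 3) and 0.04 (MF minus C).

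Among the sensing genes, Insig1 moved like the enzymes. Its signal was 9.68 to 10.73 in C-fed mice (median 10.19), 9.65 to 10.82 in MF-fed mice (median 10.31), at most 11.12 in INT-fed mice (median 10.52) and 10.76 to 11.95 in CR-fed mice (median 11.55). The CR-fed mice lay above every C-fed mouse. The difference was 1.29 against C (SE 0.21, adjusted p = 8.01e-05 by limma, 2.44-fold) and 1.21 against MF (adjusted p = 0.00015), and INT minus CR was -0.92 (adjusted p = 0.00322). Srebf2 itself was 0.28 higher in CR than in C (SE 0.10, adjusted p = 0.0513) with CR values of 8.50 to 8.91 and C values of 8.23 to 8.62. Scap, the escort of SREBP2, was 0.29 higher in CR than in MF (SE 0.09, adjusted p = 0.0272), but with the mean of its 2 probe sets the adjusted p was 0.13, and the call was also lost on the CR and MF arrays alone (adjusted p = 0.0616) and without CR replicate 4, 5 or 6 or MF replicate 3, 4 or 5.

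Insig2, the second INSIG gene, which in liver has a transcript lowered by insulin and is not an SREBP2 target, had its lowest mean in CR-fed mice. INT-fed mice were close to them (INT minus CR 0.07). It stood at 10.61 to 11.52 in C-fed mice (median 10.81), 10.10 to 11.76 in MF-fed mice (median 11.59), 9.90 to 11.29 in INT-fed mice (median 10.55) and 10.01 to 11.08 in CR-fed mice (median 10.36). All 4 diets overlapped. CR minus MF was -0.75 (SE 0.27, adjusted p = 0.0494), a call that was lost under 8 of 12 other settings and without any one of 17 mice (all C-fed mice but replicates 4 and 5, all CR-fed mice but 1 and 3, all MF-fed mice but 1 and 6, and INT replicates 2, 3 and 7), and CR minus C was -0.50 (adjusted p = 0.218).

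Across the 27 mice the 2 INSIG genes were inversely related, with r = -0.70 (permutation p = 8e-05, adjusted p over 7 relations 0.00011) and rho = -0.76 (permutation p = 2e-05, adjusted 3.5e-05). The relation was -0.73 on deviations from diet means (adjusted permutation p = 3.5e-05). Without the 2 mice farthest from the median of Insig1 on each scale it was -0.66 on the values and -0.72 on deviations. The values gave -0.72 in replicates 1 to 4 and -0.65 in replicates 5 to 7. This pair was chosen after the values had been seen. Sqle was related to Insig1 at r = 0.81 (adjusted permutation p = 2.3e-05) and rho = 0.78 (adjusted permutation p = 3.5e-05). On deviations r was 0.65 (adjusted permutation p = 0.00041). Without the 2 mice farthest on each scale it was 0.74 on the values and 0.55 on deviations. Sqle and Srebf2 gave r = 0.73 (adjusted permutation p = 5.2e-05) and rho = 0.77 (adjusted permutation p = 4.2e-05). On deviations r was 0.75 (adjusted permutation p = 2.3e-05). Without the 2 mice farthest on each scale it was 0.66 on the values and 0.83 on deviations.

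Sqle and Idi1, set apart in the pathway, gave r = 0.92 and rho = 0.93. The permutation p was 1e-05 for each, the smallest that 100000 resamples can give (adjusted 2.3e-05 and 3.5e-05). On deviations r was 0.87. Without the 2 mice farthest on each scale it was 0.90 on the values and 0.84 on deviations. Within the array sets the values gave 0.94 for replicates 1 to 4 and 0.92 for replicates 5 to 7. These correlations were each computed by 2-sided permutation over 27 mice.

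**Figure D5:**
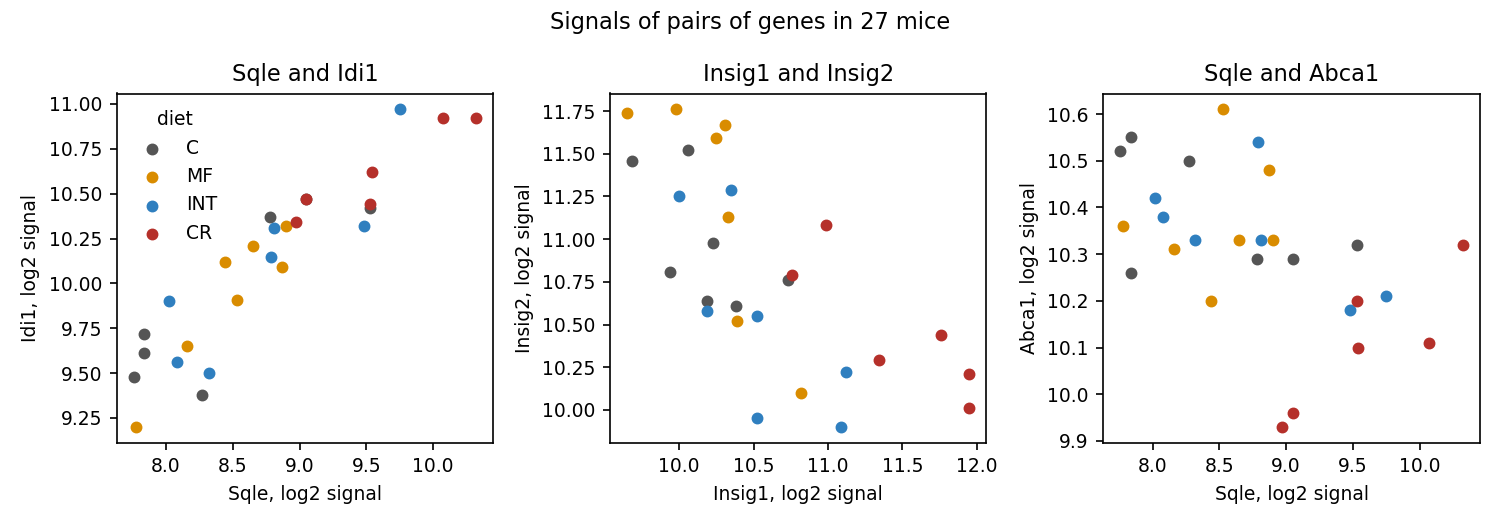
Log2 signals of Sqle with Idi1, Insig1 with Insig2 and Sqle with Abca1; each point is a mouse, colored by diet. The first pair rises along one line through all diets (r = 0.92), the second falls within and between diets (r = -0.70), and in the third the CR-fed mice sit low (r = -0.49, and -0.11 on deviations from diet means).

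Of the 5 genes of uptake and movement of cholesterol, 0 were called by limma in CR against C or MF, and 2 had an unadjusted p under 0.05 in each. Among all genes tested, 8.46% were higher and 9.05% lower in CR than in C, and 8.57% and 11.2% in CR than in MF. Over 5 genes, 0 calls cannot be told from these shares. Stard4, which carries sterol between membranes and is itself an SREBP2 target, was 0.47 higher in CR than in C (interval 0.05 to 0.90, adjusted p = 0.123 by limma) and 0.43 higher in INT than in C (interval 0.02 to 0.84, adjusted p = 0.724). Its signal was 8.14 to 8.91 in CR-fed, 8.07 to 9.02 in INT-fed, 7.54 to 8.59 in C-fed and 7.29 to 8.81 in MF-fed mice, so every pair of diets overlapped. Npc2, the soluble lysosomal cholesterol carrier, was 7.65 to 7.95 in CR-fed and 7.35 to 7.57 in INT-fed mice without overlap, and INT minus CR was -0.29 (SE 0.07, adjusted p = 0.00678). Against C and MF its differences in CR were 0.20 (adjusted p = 0.0504) and 0.20 (adjusted p = 0.0568).

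Npc1, the membrane partner of NPC2, differed by -0.01 between CR and C (interval -0.19 to 0.17). Scarb1, the receptor that takes cholesterol ester from HDL, differed by -0.04 (interval -0.22 to 0.14), and Npc1l1, the sterol importer that mice express mainly in the gut, by 0.15 (interval -0.03 to 0.34). The intervals of Npc1 and Scarb1 end below the 0.50 of Sc5d.

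Export was represented by 4 transporters. Of these, 1 was lower in CR than in C and in MF, where 9.05% and 11.2% of all genes were. A count over 4 genes is too small to be set apart from these shares. The transporter called was Abca1. Its signal was 10.26 to 10.55 in C-fed mice (median 10.32), 10.20 to 10.61 in MF-fed mice (median 10.33), 10.18 to 10.54 in INT-fed mice (median 10.33) and 9.93 to 10.32 in CR-fed mice (median 10.11). The CR-fed mice tended low but overlapped each other diet. CR minus C was -0.29 (SE 0.07, adjusted p = 0.00759 by limma), CR minus MF -0.27 (adjusted p = 0.00977) and INT minus CR 0.24 (adjusted p = 0.0281). The last call was lost without CR replicate 1, CR replicate 3, INT replicate 1 or INT replicate 4 and with arrays centered on their medians (adjusted p = 0.0598). CR minus C was -0.37 within replicates 1 to 4 and -0.12 within replicates 5 to 7, and CR minus MF -0.42 and -0.02.

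Abcg5 and Abcg8, whose products pair to move sterols into bile, followed each other. Their r was 0.88 and rho 0.90 (permutation p = 1e-05 for each, adjusted 2.3e-05 and 3.5e-05), and r was 0.88 on deviations from diet means. Without the 2 mice farthest on each scale it was 0.85 on the values and 0.86 on deviations. CR minus C was 0.15 for Abcg5 (interval -0.10 to 0.40) and 0.05 for Abcg8 (interval -0.22 to 0.32), and neither was called in any comparison. The array sets differed in sign: CR minus C for Abcg5 was -0.13 within replicates 1 to 4 and 0.63 within replicates 5 to 7 (adjusted p = 0.0263), and for Abcg8 -0.22 and 0.52. Only 2 CR-fed mice, replicates 5 and 6, are in the second set, and the difference between the sets was not tested. Abcg1, which loads cholesterol onto HDL, differed by -0.04 (interval -0.28 to 0.19).

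Synthesis was also set against export across mice. Sqle and Abca1 gave r = -0.49 (permutation p = 0.0098, adjusted 0.011) and rho = -0.60 (adjusted p = 0.0014), and -0.51 without the 2 farthest mice. On deviations from diet means r was -0.11 (adjusted permutation p = 0.67), so the relation did not hold within diets. Sqle and Abcg5 gave r = 0.19 and rho = 0.03 (adjusted permutation p = 0.34 and 0.9), 0.01 without the 2 farthest mice, -0.22 within replicates 1 to 4 and 0.61 within replicates 5 to 7.

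The differences were also taken within each array set. Within replicates 1 to 4 the median CR minus C difference of the enzymes was 0.56, with 15 of 16 above 0, and within replicates 5 to 7 it was 0.77, with 16 of 16 above 0. Against MF the medians were 0.61 and 0.68. INT minus CR had medians of -0.34 and -0.77, and INT minus MF of 0.23 (16 of 16 above 0) and 0.00 (8 of 16). The enzymes varied together, so such counts over 16 are not separate results. The share of all genes above 0 within a set was not counted. With fewer mice, 5 members were called in CR against C within either set, where 9.01% and 3.65% of all genes were called, and Pmvk, Lss and Insig1 were called in both. Pmvk differed by 1.37 (adjusted p = 0.000621 by limma) and 1.86 (adjusted p = 0.00484), and Lss by 1.29 (adjusted p = 0.00595) and 1.83 (adjusted p = 0.0059).

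Genes next to the members in the pathway were read from the same fit. Of 8 further sterol pathway and SREBP2-linked genes, 4 were higher in CR than in C, where 8.46% of all genes were: Acly, which makes cytosolic acetyl-CoA (1.82, SE 0.20, adjusted p = 2.69e-07 by limma), Rdh11, a retinol dehydrogenase (0.94, adjusted p = 0.00235), Acss2, which makes acetyl-CoA from acetate (0.84, adjusted p = 0.000913), and Pcyt2, an enzyme of phosphatidylethanolamine synthesis (0.25, adjusted p = 0.0031). The same 4 were higher in CR than in MF and lower in INT than in CR. Msmo1, a sterol synthesis enzyme among the 8, was called in none of these comparisons. Its INT minus CR difference was -0.09 (adjusted p = 0.855 by limma). Acly ran from 9.17 to 10.35 in C-fed mice and from 11.30 to 12.07 in CR-fed mice without overlap. The median of the 8 was 0.43, where that of all genes was 0.00.

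Of 6 genes of SREBP processing and sterol-regulated degradation, 1 was lower in CR than in C and in MF, a share near the 9.05% and 11.2% of all genes: Syvn1, a ubiquitin ligase of the endoplasmic reticulum (-0.44, adjusted p = 0.0315, and -0.53, adjusted p = 0.00914, by limma). Its first call was lost without CR replicate 1, 3 or 5 or C replicate 6 or 7. Of 5 tested LXR receptors and targets other than the 4 exporters above, 0 were called by limma in any comparison, and 0 had an unadjusted p under 0.05 in CR against C and 1 in CR against MF. Among these 5, Srebf1, the gene of SREBP1, had the largest difference between CR and C, 0.22 (SE 0.20, adjusted p = 0.501). Of the exporters, which are LXR targets too, Abca1 was called.

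Of 10 other genes of cholesterol handling, 1 was higher in CR than in C, a share near the 8.46% of all genes, namely Vldlr, a lipoprotein receptor (0.75, SE 0.20, adjusted p = 0.00796 by limma). Against MF there were 2 higher, Vldlr (0.57, adjusted p = 0.0417) and Cyp7a1, the enzyme that starts the classic bile acid pathway (0.82, SE 0.29, adjusted p = 0.0456), and 1 lower, Lrp1, a receptor for lipoprotein remnants (-0.18, adjusted p = 0.0277). The Cyp7a1 call was lost without CR replicate 1, 3, 4, 5 or 6, MF replicate 1, 2, 3 or 4, INT replicate 2 or 7 or C replicate 7, and had an adjusted p of 0.101 by limma on the CR and MF arrays alone, 0.0565 with no intensity minimum and 0.0626 with trend and robust variances. The Vldlr call against MF was lost without any CR-fed mouse but replicate 2 or without MF replicate 1, 2, 6 or 7, and with no intensity minimum (adjusted p = 0.0521). The Lrp1 call was lost without CR replicate 2 or 3 or MF replicate 1, with arrays centered on their medians (adjusted p = 0.0813) and on the CR and MF arrays alone (0.0571). Of 6 SREBP1 targets of fatty acid synthesis, 5 were higher in CR than in C, among them Fasn, the fatty acid synthase (1.30, SE 0.15, adjusted p = 7.54e-07), and Acaca, the acetyl-CoA carboxylase (1.11, adjusted p = 5.52e-06). Scd1, a desaturase, differed by 0.07 (adjusted p = 0.35). Its mean signal was 13.46 to 13.62 over the diets, and whether so high a signal leaves room for a rise was not tested. All 6 targets, Scd1 included, were called lower by limma in INT than in CR, where 6.62% of all genes were.

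Over all genes, the 5 non-members most like the enzymes across the 27 mice, by mean Pearson r with the 16, were Rdh11 (0.78), Erg28 (0.76), Spata25 (0.75), Msmo1 (0.74) and Pstpip2 (0.72). Erg28 encodes a scaffold of the sterol C4-demethylation complex and Msmo1 the methylsterol oxidase of the same steps. CR minus C was 0.26 for Erg28 (adjusted p = 0.0211 by limma) and 0.56 for Msmo1 (adjusted p = 0.126). It was 0.57 for Spata25 (adjusted p = 0.00819) and 0.62 for Pstpip2 (adjusted p = 0.00653). The 5 genes were chosen by likeness to the enzymes over these same mice, CR-fed mice included. A difference in CR is therefore partly built into the choice, and these p values are no separate support.

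Markers of liver cell types were read from the same arrays. Hepatocyte markers were high in all livers, with a summed signal of 44700 to 50200 in C-fed and 52000 to 53800 in CR-fed mice; 2 of 5 were higher in CR than in C, Tat (0.49) and Cps1 (0.27). The sum of 5 macrophage markers was 2120 to 3360 in C-fed, 1940 to 3040 in MF-fed, 1790 to 2480 in INT-fed and 2510 to 3730 in CR-fed mice, and 2 of 5 were higher in CR than in C, Clec4f (0.48) and Csf1r (0.43). Of 4 cholangiocyte markers 2 were higher in CR than in C, of 4 endothelial markers 1, and of 4 stellate markers 0 (0 also at an unadjusted p under 0.05). Among all genes tested, 8.46% were higher and 9.05% lower in CR than in C. With 4 or 5 markers for a cell type, these counts are too small to be set apart from those shares. Alas2, the 1 erythroid marker measured, differed by -1.42 between CR and C. Adipoq, S100a8, Retnlg and Cel, markers of adipocytes, neutrophils and pancreas, did not pass the intensity minimum. The part of these cells in the enzyme differences was not tested.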

How the data were processed

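Liver RNA (100 ng) of 27 mice was hybridized to Affymetrix Mouse Gene 1.1 ST arrays. The authors deposited log2 intensities after RMA, which summarizes probes, corrects background and normalizes all arrays together; so each value depends on the whole set of arrays, and the number of arrays limits the precision. The table has 35556 probe sets, of which 21218 named 1 gene, 1881 several and 12457 none in GEO's platform annotation; 18790 of the 18820 genes took their symbol from RefSeq (GRCm38.p6). The methods describe probe sets by Entrez gene, but the deposited table holds the maker's probe sets, and for the 1386 genes with several the one of highest mean was kept. As in the methods, genes above an intensity of 20 on at least 5 arrays were tested (13603).

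Diets were compared with limma 3.58.1 (R 4.3.3) over all 27 arrays with no covariate, Benjamini-Hochberg adjustment over all genes and a threshold of 0.05. Relations over mice used 2-sided permutation tests (100000 resamples). All 32 members were to be named, with, where none was called, the 2 of smallest p; of each further list up to 4 called genes or the 2 of largest change; and the 5 genes most like the enzymes. The members, the gene lists and the array sets were chosen with earlier results of these data known. The fit was tested on simulated data. Alternatives changed the intensity minimum, centring, variance model, arrays fitted, probe set rule, blocks and single mice. Columns of other samples left unused numbered 0. Drawing and sequence work used Python 3.11.15.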

Additional observations from a re-analysis of the deposited data

Results flagged for a closer look

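Among 116 groups of 6 or 7 mice (29 genes in 4 diets), 6 held a mouse whose gap to its nearest neighbor was large for the range of its group, where chance alone gives about 1 in 20 groups. Sc5d and Dhcr7 were each far above the rest of their diet in INT replicate 3, at 11.89 (next 11.41) and 10.06 (next 9.50), and the same mouse had the highest signal of its diet in 14 of 16 enzymes. Ebp in CR replicate 2 was 10.36, below the next value of 10.58. Npc1 in CR replicate 1 was 11.21, above 11.06. Abcg1 in C replicate 5 was 7.80, above 7.41. Abcg5 in MF replicate 4 was 10.12, below 10.56, and Abcg8 had its lowest MF value, 9.53, in that mouse too.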

How the results depend on the processing

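The median enzyme difference kept its sign in all 10 settings other than array sets and single mice, at 0.65 to 0.71 for CR minus C, 0.66 to 0.72 for CR minus MF and -0.60 to -0.53 for INT minus CR. Members called by limma changed with the array set: 5 within replicates 1 to 4 and 5 within replicates 5 to 7 for CR against C, 9 and 4 for CR against MF, and 3 and 4 for INT against CR. Genes called were 1226 and 497 for CR against C, 331 for CR against MF within replicates 5 to 7, 1038 and 347 for INT against CR, and 1 for MF against C within replicates 1 to 4; these sets have fewer mice. Without single mice, members called ran from 11 to 17 for CR against C, 9 to 16 for CR against MF and 7 to 12 for INT against CR, and stayed at 0 to 0 for the other 3; genes called ran from 1919 to 2506, 2232 to 2761 and 1674 to 2175. For INT against MF they ran from 0 to 29, above 0 without C replicate 5, MF replicate 6 or C replicate 7. On deviations from diet means the relation of Sqle with Abca1 was -0.11 and that of Sqle with Abcg5 -0.05, against -0.22 within replicates 1 to 4; Scap in MF minus C was 0.03 within replicates 5 to 7. The cause of these changes was not tested. Deviations of same-numbered mice correlated at r = -0.249 to 0.304 (39 pairs, median 0.081, 17 over 0.1), with 6 of the 7 pairs of C-fed and INT-fed mice over 0.1; as not every pair was over 0.1, replicate numbers were not taken as pairs. With a replicate block limma called 16 members for CR against C (2410 genes), 14 for CR against MF (2654 genes) and 9 for INT against CR (2079 genes), and 0 for the others; the Scap call against MF (adjusted p = 0.0522) and the Syvn1 call against C (0.0641) were lost. With the number in the mouse identifier as a block the members called were 12, 11 and 8 in these comparisons (2251, 2527 and 1882 genes). Calls lost under it were those of Idi1 against C (0.0535) and, against MF, of Idi1 (0.0522), Nsdhl (0.0583), Hsd17b7 (0.0596), Insig2 (0.0664), Cyp7a1 (0.0548), Lrp1 (0.0639) and Vldlr (0.0509). With the array set as a block they were 16, 16 and 8 (2499, 2791 and 2143 genes).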
